A study of Mus musculus with 9 samples.

Results

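Nr2f1, Nr2f2, Tbx5, Hey1, Hey2, Irx3, Irx4, Irx5 and Shox2 are 9 transcription factor genes that act in atrial, ventricular or pacemaker tissue of the heart. They were found by matching these symbols to the Ensembl identifiers of the count table through the mm10 gene annotation, and all 9 of them were among the 55487 genes listed and the 15633 genes that passed the low-count filter and were tested. RNA was sequenced from isolated mouse cardiomyocytes (heart muscle cells), with 3 groups of 3 libraries. The Firre group received AAV9-Firre, an adeno-associated virus vector of a serotype that infects heart muscle well, carrying the long noncoding RNA Firre. The negative control received AAV9-VC, while the labels of the blank control (NC) name no vector. The sources used here do not give the strain, age, vector dose, time after infection or the promoter that drives Firre. The labels call the libraries biological replicates and do not tie them to different animals or cultures, so the p-values rest on a spread between libraries that may be technical.

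In the developing heart, Nr2f2 (also known as COUP-TFII) and Nr2f1 hold atrial muscle in the atrial state, and Nr2f2 also specifies venous and lymphatic endothelium. Tbx5 is the T-box factor of the atria and the left ventricle and activates chamber genes together with Nkx2-5 and Gata4. Hey1 and Hey2 are Notch-induced repressors, Hey1 in atrial and Hey2 in compact ventricular muscle, and both also act in arterial endothelium. Irx3, Irx4 and Irx5 are Iroquois homeobox factors: Irx4 is restricted to ventricular muscle, Irx3 patterns the ventricular conduction system, and Irx5 shapes the repolarization gradient across the ventricular wall. Shox2 keeps the sinus node in its pacemaker state by restraining Nkx2-5.

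Upstream sequence is shown for 3 genes that stand for the outcomes seen here, a member that fell (Nr2f2), one that rose (Irx4) and the Notch-induced gene Hey2, whose difference did not pass the test. Each run is the 250 bases before the RefSeq transcription start (GRCm38.p6), read 5′ to 3′ along the gene's strand. The RefSeq table held a window for 6 of the 9 genes. In the Irx4 and Hey2 windows the 18 bases nearest the start lie in an exon of the GENCODE gene model. The windows lie at chr7:70366747-70366996 (minus strand) for Nr2f2, chr13:73260247-73260496 (plus strand) for Irx4 and chr10:30842784-30843033 (minus strand) for Hey2.
Nr2f2: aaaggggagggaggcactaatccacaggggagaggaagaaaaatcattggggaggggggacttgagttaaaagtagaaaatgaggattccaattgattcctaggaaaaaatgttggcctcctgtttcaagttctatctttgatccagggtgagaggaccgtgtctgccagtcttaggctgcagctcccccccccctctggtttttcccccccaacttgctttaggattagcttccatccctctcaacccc
Irx4: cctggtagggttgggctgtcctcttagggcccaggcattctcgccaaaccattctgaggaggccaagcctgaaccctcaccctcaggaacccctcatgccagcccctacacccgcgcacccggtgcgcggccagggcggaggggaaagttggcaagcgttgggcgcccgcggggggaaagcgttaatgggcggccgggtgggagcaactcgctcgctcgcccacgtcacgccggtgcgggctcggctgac
Hey2: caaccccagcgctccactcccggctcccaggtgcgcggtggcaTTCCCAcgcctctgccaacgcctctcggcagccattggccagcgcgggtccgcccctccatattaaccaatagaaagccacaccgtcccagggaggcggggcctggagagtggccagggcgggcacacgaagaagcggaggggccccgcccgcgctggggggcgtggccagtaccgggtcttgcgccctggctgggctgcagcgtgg
Capitals mark a match on either strand to any of 5 motifs. TGGGAA is the core bound by RBPJ, the DNA-binding protein of Notch signalling. Nuclear receptors bind AGGTCA. For T-box factors the letters searched were GGTGTGA. Hey proteins bind the E-box CACGTG. The motif of GATA factors was written as AGATAA. The windows of Nr2f2 and Irx4 held none of them. Hey2 held 1 match, TTCCCA, the reverse complement of TGGGAA, starting 207 bases before the start; 21.6% of the 32851 windows in the table hold that motif on one strand or the other. The same motif also matched in the windows of Shox2 and Irx3, 91 and 82 bases before the RefSeq start, so 3 of the 6 genes with a window held it. All 250 bases of the Irx3 window lie in exons of its GENCODE gene model, so that match is inside the annotated gene. The Nr2f1 windows also lie wholly in exons of Nr2f1. The shares for the other motifs were 14.0% for AGGTCA, 3.33% for GGTGTGA, 6.02% for CACGTG and 9.99% for AGATAA. A match describes the letters and does not show that a factor binds there.

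Counts assigned to genes ran from 15591542 to 22697016 per library. Firre itself was at 62.6 to 69.7 CPM in the Firre libraries and at 30.2 to 37.2 CPM in the 6 controls, so each library labelled Firre was above every control. CPM are counts per library size, scaled with TMM factors. Muscle markers were abundant in each library, and markers of other cell types were present too. The 12 cardiomyocyte markers of both chambers summed to 34494 to 37674 CPM in the negative control, and 12 fibroblast markers summed to 10014 to 10211 CPM there. With Firre those sums were 53353 to 56671 and 4621 to 5166 CPM. Endothelial markers went from 834 to 846 CPM down to 317 to 329 CPM, smooth muscle and pericyte markers from 3739 to 4169 CPM to 2909 to 3144 CPM, epicardial markers from 644 to 678 CPM to 175 to 194 CPM, and macrophage markers from 72.1 to 77.7 CPM to 11.9 to 13.2 CPM. The smooth muscle and pericyte sum includes Des, also a muscle gene, which rose. Of the 12 genes in that list 10 fell and 2 rose in the test below, with a median log2 fold change of -0.99. Mitochondrially encoded genes took 7.07% to 8.07% of the counts with Firre and 5.89% to 6.62% in the negative control. In bulk libraries, fewer cells of a type and less RNA per cell cannot be told apart, and this holds for every difference below.

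Between the Firre and negative control groups, 4 of the 9 factors rose (Tbx5, Nr2f1, Irx4 and Irx5), 2 fell (Nr2f2 and Hey1) and 3 did not pass the test (Hey2, Irx3 and Shox2). Genes were tested by quasi-likelihood in edgeR, with Benjamini-Hochberg adjustment over all 15633 genes and a threshold of 0.05. The same test called 56.0% of all genes, 27.5% higher and 28.4% lower, so the share of factors called is near that background and is no result about them as a set. For 5 of the 9 the groups did not overlap in CPM, where 62.4% of all genes did not. Their median log2 fold change was 0.22, against 0.000241 for all genes tested. The factors are therefore described one at a time. The 2 that fell, Nr2f2 and Hey1, are atrial factors that also act in endothelium. The atrial factor Nr2f1 rose, and so did Tbx5, the factor of the atria and the left ventricle. Of the ventricular factors, Irx4 and Irx5 rose and Hey2 and Irx3 did not pass.

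**Figure D1:**
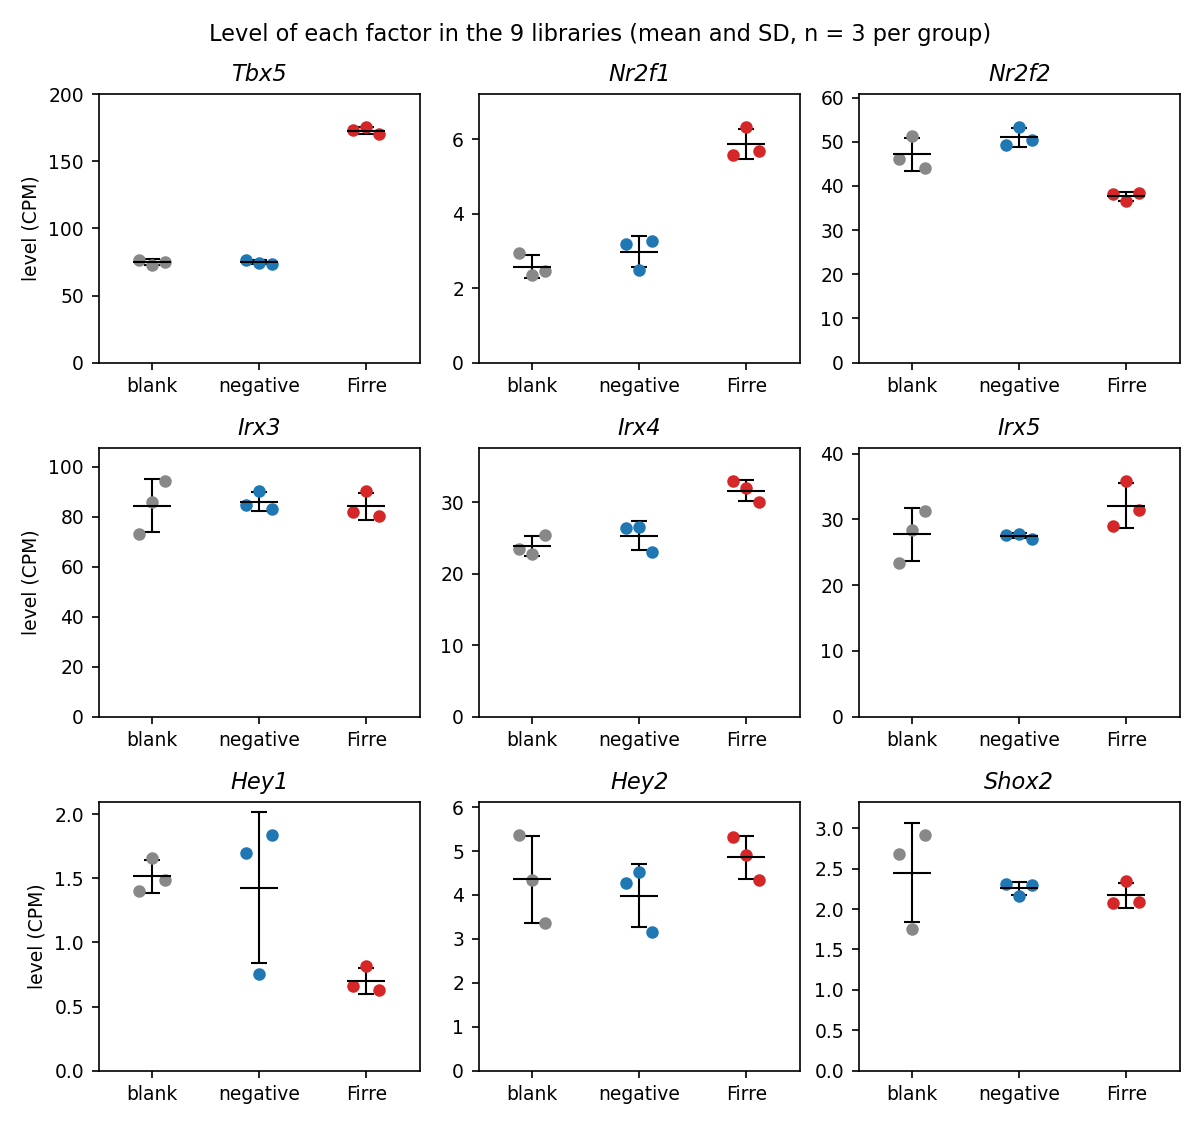
Level of each of the 9 factors in each library, in CPM on an axis from 0, for the blank control, negative control and Firre groups; points are libraries, bars the mean and SD of 3. All 3 Firre libraries lie above all 6 controls for Tbx5, Nr2f1 and Irx4 and below them for Nr2f2; in the other panels the Firre libraries overlap the controls.

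The T-box factor gene Tbx5 (ENSMUSG00000018263, chr5:119832668-119885219, plus strand) had the largest rise. At 173, 176 and 170 CPM, the Firre libraries stood against 76.4, 74.5 and 73.8 CPM for the negative and 76.7, 72.9 and 75.4 CPM for the blank control. The Firre libraries were far above both control groups, which overlapped each other, and the replicates lay close together. Mean levels were 173 ± 2.55 CPM with Firre, 74.9 ± 1.34 CPM for the negative and 75.0 ± 1.92 CPM for the blank control (SD, n = 3). The log2 fold change against the negative control was 1.21 (SE 0.05, edgeR adjusted p = 9.03e-19), a 2.31-fold rise, with a 95% interval of 1.10 to 1.31. Of all genes tested, 4.89% rose by at least 2-fold with an adjusted p under 0.05. Its value was above those of 11 of the 12 cardiomyocyte markers, a difference that was not tested; their median was 0.74 and their highest value 1.27, for the Z-disc gene Ldb3.

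The gene next to Tbx5 on the other strand changed in the same direction. Gm43050, a long intergenic noncoding RNA that starts 748 bases from the Tbx5 start and runs away from it (chr5:119828448-119831920, minus strand), had 111, 118 and 114 counts with Firre, 66, 48 and 61 in the negative control and 53, 61 and 49 in the blank control. Its level went from 2.92 ± 0.591 to 5.63 ± 0.313 CPM (SD, n = 3), a log2 value of 0.95 (edgeR adjusted p = 3.74e-05). No Firre library overlapped a control. The gene models share no exonic base.

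The nuclear receptor genes Nr2f1 and Nr2f2, close paralogs that both hold atrial identity, went in opposite directions. Nr2f1 (ENSMUSG00000069171, chr13:78188973-78199757, minus strand) was the rarer paralog. The blank libraries had 2.94, 2.34 and 2.46 CPM and the negative ones 3.19, 2.49 and 3.27 CPM, against 5.57, 6.32 and 5.69 CPM with Firre. Every Firre library was above every control. The log2 fold change was 0.98 (SE 0.17, edgeR adjusted p = 1.71e-05) and rested on 359 counts over the Firre group and 179 over the negative control. Nr2f1 was a low gene in each group: at most 25.6% of the genes tested lay below it per kilobase of exon, in the Firre group.

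Nr2f2 (ENSMUSG00000030551, chr7:70351944-70366735, minus strand) was the more abundant paralog. With Firre the libraries held 38.1, 36.5 and 38.3 CPM, next to 49.3, 53.3 and 50.3 CPM for negative and 46.1, 51.2 and 44.1 CPM for blank libraries. Here all Firre libraries were below all 6 controls. The mean was 37.6 ± 1.01 CPM with Firre, 51.0 ± 2.07 CPM for the negative and 47.1 ± 3.68 CPM for the blank control (SD, n = 3), and Nr2f2 fell by 0.44 on the log2 scale (SE 0.07, edgeR adjusted p = 1.20e-06). Its fall was smaller than the median of the endothelial markers (-1.10) and of the fibroblast markers (-1.06), 2 cell types that also express Nr2f2; their part in the fall was not tested.

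The ratio of the paralogs, given without a test, shows both changes at once. Per kilobase of exon, Nr2f1 stood at 0.247, 0.293 and 0.251 of the Nr2f2 level in the Firre libraries, at 0.109, 0.0792 and 0.110 in the negative control and at 0.108, 0.0774 and 0.0944 in the blank control. The Firre libraries all lay above the controls, although Nr2f2 remained the more abundant paralog in all 9. No 100-base stretch of the annotated transcripts is identical between the 2 genes, so reads of that length cannot match both exactly. Each gene is overlapped by a gene on the other strand. The antisense gene of Nr2f1, A830082K12Rik, shares 123 exonic bases with it (2.42% of the Nr2f1 exons). It had 23, 18 and 24 counts with Firre, 7, 15 and 12 in the negative control and 14, 17 and 9 in the blank control. Its mean was 1.08 ± 0.233 CPM with Firre, 0.559 ± 0.179 CPM for the negative and 0.746 ± 0.203 CPM for the blank control (SD, n = 3). Against the negative control the log2 value was 0.92 (edgeR adjusted p = 0.0424), close to the threshold and at low counts. B130024G19Rik, which overlaps 7.46% of the Nr2f2 exons, did not pass the test, at -0.45 (adjusted p = 0.344). Whether counting used strand is not stated, so reads in the shared bases cannot be assigned to a strand.

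**Figure D2:**
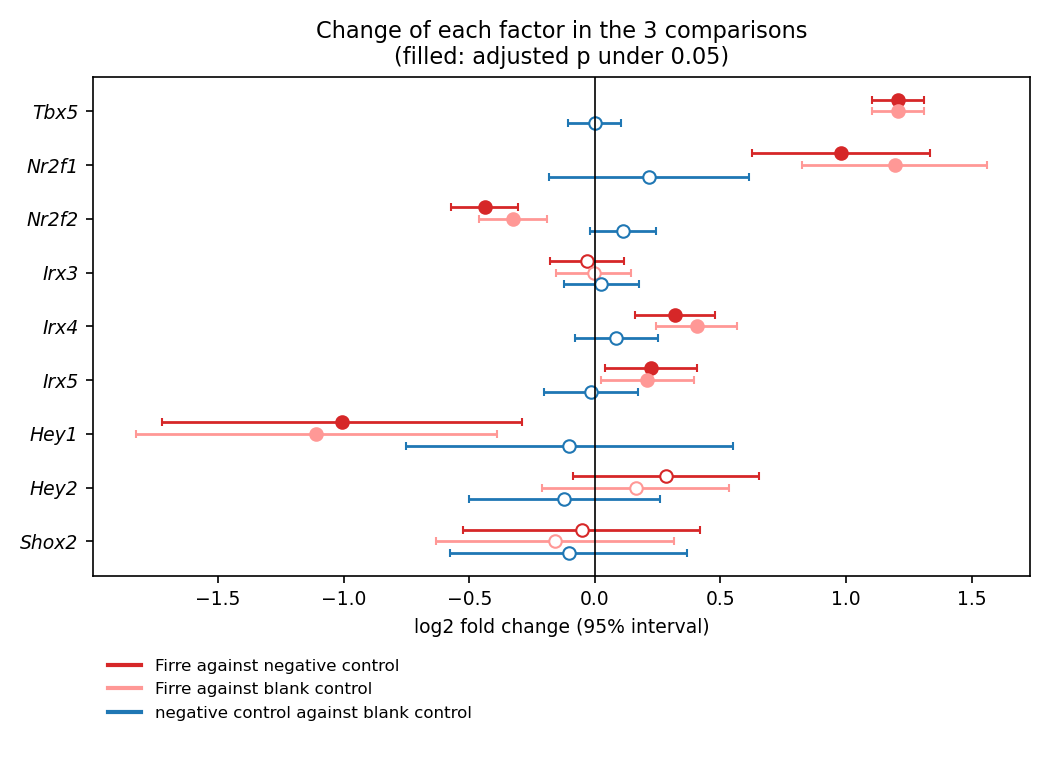
Log2 fold change of each factor with its 95% interval in the 3 comparisons; filled points passed an adjusted p of 0.05, and the axis is linear in log2. Tbx5 and Nr2f1 lie near 1 against both controls, Nr2f2 and Hey1 lie below 0, and no factor passed for the negative against the blank control. The 3 comparisons share groups, so their points are not independent.

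Of the Iroquois genes, Irx4 and Irx5 rose slightly and Irx3, the most abundant of them, did not pass. Set against the cardiomyocyte markers, which rose in the same libraries, Irx4 and Irx5 were lower with Firre, at -0.30 and -0.39 in log2 without a test. Irx4 (ENSMUSG00000021604, chr13:73260479-73269608, plus strand), the ventricular member, was called higher. The blank libraries had 23.5, 22.8 and 25.4 CPM and the negative ones 26.4, 26.6 and 23.1 CPM, against 32.9, 31.9 and 30.0 CPM with Firre. Again no Firre library overlapped a control. The log2 fold change was 0.32 (SE 0.08, edgeR adjusted p = 8.31e-04), from 25.3 ± 1.97 to 31.6 ± 1.51 CPM (SD, n = 3).

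Irx5 (ENSMUSG00000031737, chr8:92357625-92376286, plus strand) was called higher too. With Firre the libraries held 29.0, 35.8 and 31.4 CPM, next to 27.6, 27.8 and 27.0 CPM for negative and 23.4, 28.4 and 31.3 CPM for blank libraries. The Firre libraries lay above the negative control but overlapped the blank control. At 0.22 in log2 (SE 0.09, edgeR adjusted p = 0.0339), the difference was close to the threshold, and the call did not hold under 7 of 16 alternatives. It was lost without any 1 of the negative control libraries (0.21 to 0.23), without Firre replicate 3 (0.24) or without Firre replicate 2 (0.14, adjusted p = 0.228), with library totals (0.17) and with DESeq2 (0.22, adjusted p = 0.0791), and the adjusted p ran from 0.0104 to 0.228 over the 16. The divergent noncoding gene Crnde, which starts 1505 bases from the Irx5 start, had a value of 0.02 (adjusted p = 0.942).

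Irx3 (ENSMUSG00000031734, chr8:91798525-91802067, minus strand) was not called. The blank libraries had 73.0, 86.1 and 94.3 CPM and the negative ones 84.8, 90.2 and 83.2 CPM, against 81.9, 90.4 and 80.5 CPM with Firre. The 3 groups overlapped. The difference from the negative control was -0.03 on the log2 scale with a 95% interval of -0.18 to 0.12 (edgeR adjusted p = 0.742), so small changes either way are not distinguished from none. Its antisense gene Irx3os, which shares 4.49% of the Irx3 exons, had -0.15 (adjusted p = 0.648).

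Profiles of the 9 factors were compared by the root mean square difference in log2 CPM over the 9 libraries, each gene centred on its own mean. Irx3 and Irx5, which lie in the same cluster on chromosome 8, were the closest pair, at 0.12. Irx4 and Irx5 followed at 0.15 and Nr2f1 and Tbx5 at 0.16. Genes outside the 9 were closer, the nearest at 0.048 from Irx3 and 0.043 from Irx5. The measure is small for any 2 genes that change little, so it does not show shared regulation. The paralogs Nr2f1 and Nr2f2 stood at 0.70, and Tbx5 and Hey1 were farthest apart at 1.06. Of the other Iroquois genes, Irx6 had 0 counts in all 9 libraries. Irx1 and Irx2, which lie in the same cluster as Irx4, both rose: Irx2 went from 6.52 ± 1.08 to 12.1 ± 1.25 CPM (0.89 in log2, edgeR adjusted p = 2.04e-06) and Irx1 from 4.53 ± 0.529 to 7.33 ± 0.126 CPM (0.69, adjusted p = 2.32e-04; SD, n = 3).

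**Figure D3:**
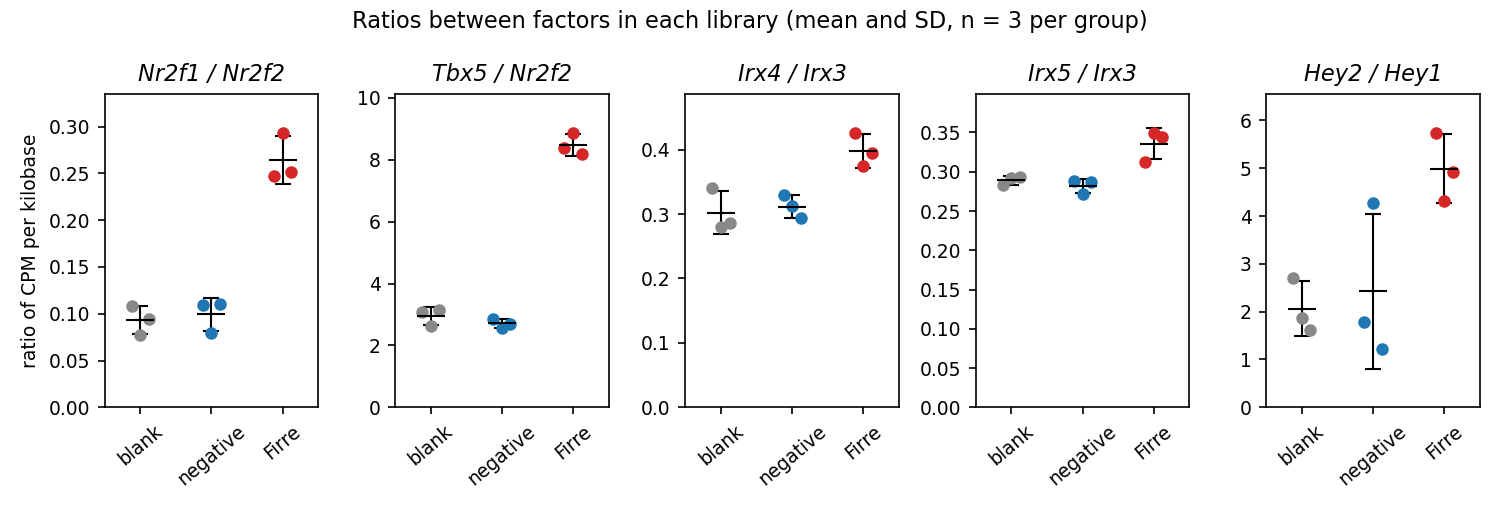
Ratios of levels per kilobase of exon between pairs of factors in each library, on axes from 0; points are libraries and bars the mean and SD of 3 per group. Nr2f1 over Nr2f2 goes from 0.0995 ± 0.0176 to 0.264 ± 0.0255 and Tbx5 over Nr2f2 from 2.71 ± 0.139 to 8.49 ± 0.349 between the negative control and Firre groups, and Hey2 over Hey1 is uneven in the negative control.

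Hey1 (ENSMUSG00000040289, chr3:8663359-8667256, minus strand) was the lowest factor and fell. It had 13, 18 and 12 counts in the Firre libraries, 33, 16 and 36 in the negative control and 22, 34 and 26 in the blank control, or 0.658, 0.813 and 0.627 CPM against 1.70, 0.753 and 1.84 CPM and 1.40, 1.66 and 1.49 CPM. Negative control replicate 2 lay within the Firre range, and the other 5 controls lay above it. Hey1 fell by 1.01 on the log2 scale (SE 0.35, edgeR adjusted p = 0.0158). The call was lost without negative control replicate 1 (-0.87, adjusted p = 0.0740), without negative control replicate 3 (-0.78, adjusted p = 0.104) or without Firre replicate 3 (-0.93, adjusted p = 0.0512), and over the 16 alternatives the adjusted p ran from 0.00181 to 0.104. Without negative control replicate 2 the value was -1.32.

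Hey2 (ENSMUSG00000019789, chr10:30832359-30842801, minus strand), the ventricular counterpart, was not called. With Firre the libraries held 5.31, 4.92 and 4.33 CPM, next to 4.27, 4.52 and 3.16 CPM for negative and 5.36, 4.34 and 3.37 CPM for blank libraries. The groups overlapped. The value was 0.28 with a 95% interval of -0.09 to 0.65 (edgeR adjusted p = 0.186), on 59 to 109 counts per library. Whether Hey1 and Hey2 changed differently was not tested. The third gene of the family, Heyl, chosen after its value was seen, went from 7.20 ± 0.539 to 3.24 ± 0.843 CPM (SD, n = 3) and fell by 1.14 (edgeR adjusted p = 1.23e-06).

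Hey genes answer to Notch, and most of the Notch genes tested fell with Firre. Among 20 tested genes of 22 listed, 15 fell, 5 did not pass and 0 rose (median -0.57), beside 28.4% of all genes lower. The receptor genes Notch1, Notch3, Notch4 and Notch2 fell by 1.09, 1.29, 1.31 and 0.52, the ligand gene Jag1 by 1.20, and Nrarp, a Notch-induced feedback inhibitor, by 1.54 (edgeR adjusted p at most 4.34e-09). Notch1 went from 87.2 ± 8.98 to 40.8 ± 0.948 CPM (SD, n = 3). Rbpj, the DNA-binding protein of the pathway, named after its value was seen, had -0.13 (adjusted p = 0.248). Endothelial markers, which mark cells that carry Notch1 and Notch4, fell in 11 of 12 at a median of -1.10, and markers of endothelial subtypes (endocardial, arterial, venous and lymphatic) in 10 of 12 at a median of -0.76; their part in the Notch values was not tested. Notch3 is itself one of the smooth muscle and pericyte markers, 10 of which fell and 2 of which rose (median -0.99).

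Shox2 (ENSMUSG00000027833, chr3:66971727-66981771, minus strand) was not called. The blank libraries had 2.68, 1.76 and 2.91 CPM and the negative ones 2.31, 2.16 and 2.30 CPM, against 2.07, 2.35 and 2.09 CPM with Firre. The groups overlapped, and the blank control was the most spread. The value was -0.05 with a 95% interval of -0.52 to 0.42 (edgeR adjusted p = 0.863) at 36 to 52 counts per library. Rsrc1, a splicing-related gene, starts 381 bases from the Shox2 start on the other strand and shares 4.62% of the Shox2 exons. It had 442 to 575 counts per library and a value of -0.12 (adjusted p = 0.247), and its part in the Shox2 counts was not tested.

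Sinus node genes, the tissue Shox2 marks, went both ways: of 10 tested genes of 12 listed, 6 rose and 4 fell (median 0.32), beside 27.5% of all genes higher and 28.4% lower. The calcium channel subunit gene Cacna2d2 rose by 2.04, the T-type calcium channel gene Cacna1g by 0.98, the pacemaker channel gene Hcn4 by 1.30 and the copine gene Cpne5 by 1.44. Bmp4 fell by 1.42 and Tbx18 by 0.42 (edgeR adjusted p at most 1.08e-06 for these 6). Hcn4 went from 4.61 ± 0.789 to 11.4 ± 0.605 CPM (SD, n = 3). Tbx18 also marks the epicardium, whose 12 markers all fell, at a median of -2.27, and that overlap was not separated. Isl1 and Vsnl1 were too low to be tested, with 53 and 31 counts over all 9 libraries.

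Per kilobase of exon, the order of the 9 factors was the same in both control groups: Irx3, Tbx5, Irx4, Irx5, Nr2f2, Hey2, Shox2, Nr2f1 and Hey1. In the negative control the means ran from 31.2 CPM per kilobase for Irx3 through 9.72, 8.79 and 5.91 for Irx4, Irx5 and Nr2f2 to 0.867, 0.682, 0.585 and 0.438 for the last 4, with Tbx5 libraries between 15.8 and 16.3. Irx4 and Irx5, Hey2 and Shox2, and Nr2f1 and Hey1 overlapped between libraries of that group. With Firre, Tbx5 stood first at 37.0 ± 0.546 and Irx3 next at 30.5 ± 1.95 CPM per kilobase (SD, n = 3), without overlap, and Nr2f1, between 1.09 and 1.24, moved ahead of Hey2 at 1.06 ± 0.107 and Shox2 at 0.656 ± 0.0464. Nr2f1 and Hey2 overlapped there. Tbx5 took 38.0% of the summed per-kilobase level of the 9 factors with Firre and 21.6% in the negative control, and Irx3 31.3% and 42.0%.

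Muscle markers rose in the same libraries, so the factors were also set against them. All 12 cardiomyocyte markers passed as higher with Firre, with values from 0.35 to 1.27 around a median of 0.74. Each factor was then expressed in CPM of the summed counts of these 12 genes, of which the heavy chain gene Myh6 has the largest level. Tbx5 had 3097 to 3194 with Firre and 2028 to 2160 in the negative control. Nr2f1 had 102 to 112 and 72.3 to 91.7. Only these 2 factors were higher with Firre on this scale, by 0.59 and 0.36 in log2 of the group means. Irx4 turned to -0.30 and Irx5 to -0.39, Irx3 and Shox2 stood at -0.65 and -0.67, Nr2f2 at -1.05, Hey2 at -0.33 and Hey1 at -1.64. These values are descriptions without a test, and more marker RNA per muscle cell and more muscle cells cannot be told apart in them.

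**Figure D4:**
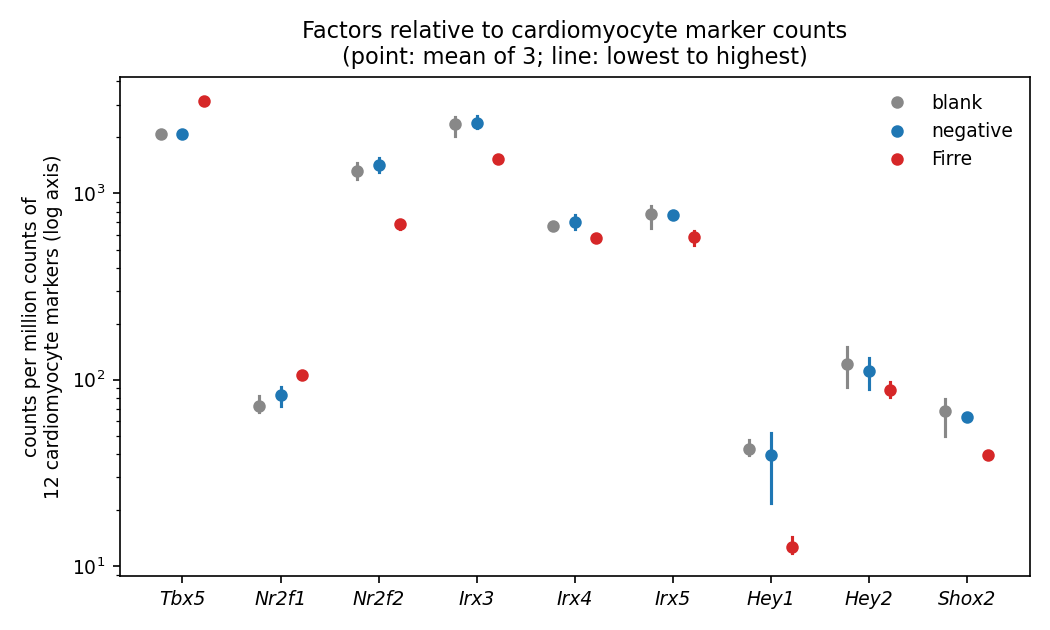
Each factor in CPM of the summed counts of 12 cardiomyocyte markers, on a log axis, by group; points are means of 3 libraries and lines run from the lowest to the highest library. On this scale Tbx5 and Nr2f1 are higher with Firre than in either control, and the other 7 means are lower.

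Chamber genes include targets of these factors. Of 16 atrial muscle genes 14 rose and 2 fell (median 1.43), and of 12 ventricular muscle genes 9 rose, 1 fell and 2 did not pass (median 0.38), where 27.5% of all genes rose and 28.4% fell. Against the blank control 7 ventricular genes rose, 1 fell and 4 did not pass. Between the lists, the difference of the medians was not tested, and neither was the part of the muscle marker rise in it. The atrial myosin light chain genes Myl7 and Myl4 rose by 1.73 and 1.53, the kinase genes Sbk3 and Sbk2 by 1.74 and 1.95 and Pam, which amidates peptide hormones, by 1.06. The secreted factor gene Dkk3 went from 50.8 ± 0.728 to 204 ± 13.5 CPM (SD, n = 3). The 2 genes of the atrial list that fell were named after their values were seen. The potassium channel gene Kcna5, at 0.566 ± 0.0964 CPM in the negative control, was at -1.61 (edgeR adjusted p = 0.0117). The T-box gene Tbx20 (-0.14, adjusted p = 0.0337) is also on the partner list below, and its fall counts in both lists. Among ventricular genes, Pln, which restrains the calcium pump, rose by 0.44, the light chain genes Myl2 and Myl3 by 0.39 and 0.22, the calcium channel gene Cacna1c by 0.37, the potassium channel gene Kcnj2 by 0.57 and the slow myosin gene Myh7 by 0.78. Lbh, the gene that fell, was at -0.18 (adjusted p = 0.00115) and is named after its value was seen.

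Transcription factors that work with these genes went both ways. Of 15 partners, 9 rose, 4 fell and 2 did not pass (median 0.29), beside 27.5% of all genes higher and 28.4% lower. The 12 cardiomyocyte markers had a median of 0.74 in the same comparison. The part of the muscle marker rise in the partner values was not tested. Mef2c and Mef2a, muscle factors, rose by 1.07 and 0.34, the SRF coactivator gene Myocd by 0.98, Prox1 by 0.85 and Gata4, a direct partner of Tbx5, by 0.41. Gata5, which is expressed in endocardium and epicardium, fell by 2.28, from 6.04 ± 0.875 to 1.23 ± 0.228 CPM (SD, n = 3). For these 6 the edgeR adjusted p was at most 6.66e-07. Nkx2-5, a partner of Tbx5 and a target of Shox2, named after its value was seen, rose by 0.72 (adjusted p = 3.56e-04).

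Retinoic acid, made in the epicardium and inflow tract of the developing heart, favours atrial fate and induces Nr2f genes. Of 15 tested genes of 18 listed, 4 rose, 7 fell and 4 did not pass (median -0.22); 27.5% of all genes rose and 28.4% fell, so the share that rose is near the background. The synthesis enzyme genes Aldh1a2 and Aldh1a1 fell by 1.75 and 0.63 and the receptor gene Rarg by 0.47, while the receptor genes Rarb and Rxrb rose by 0.68 and 0.50 (edgeR adjusted p at most 3.10e-06). Aldh1a2 is also one of the 12 epicardial markers, which fell together at a median of -2.27.

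**Figure D5:**
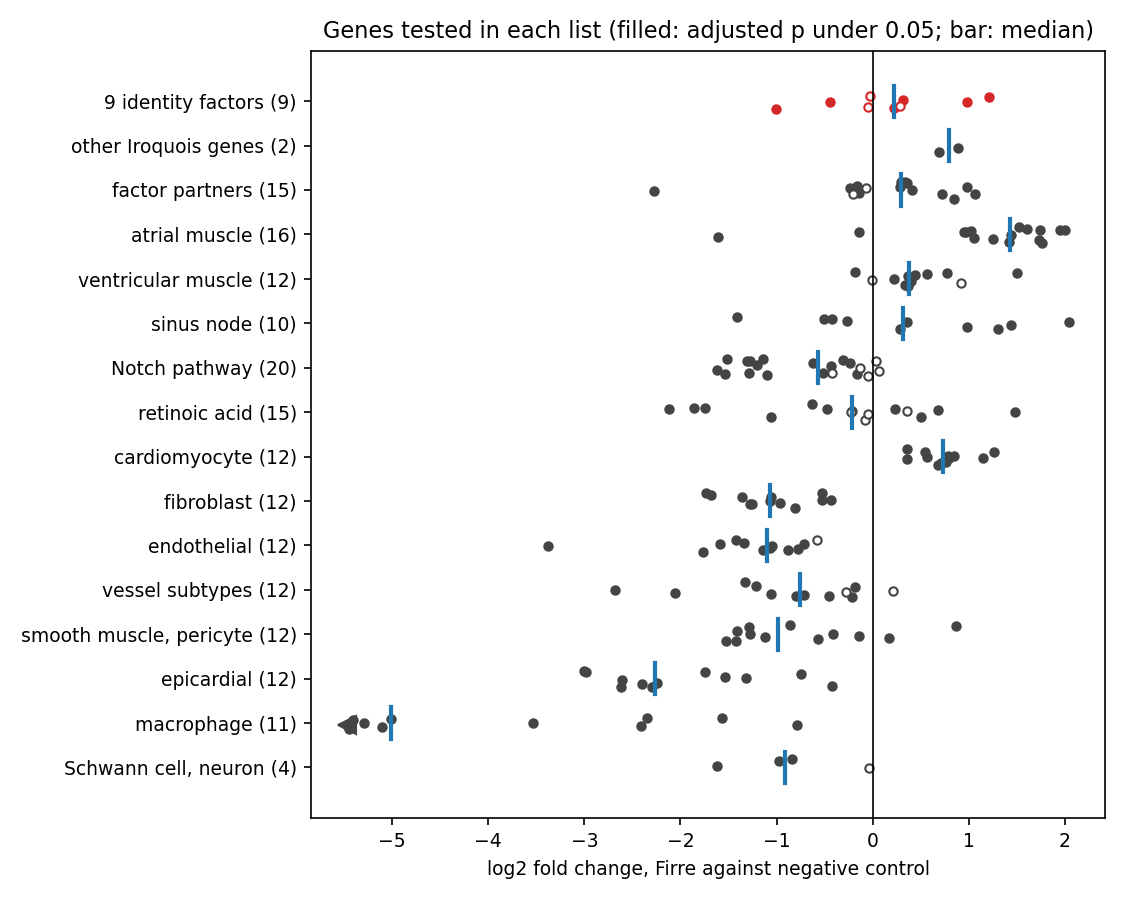
Log2 fold change between the Firre and negative control groups for each tested gene of each list; filled points passed an adjusted p of 0.05, bars are medians, and list sizes are in brackets. The 9 factors run from -1.01 to 1.21, atrial muscle genes have a median of 1.43, and the Notch pathway and the lists of other cell types have medians below 0. The triangle is C1qa, with 0 counts in the Firre group, at its bound of at least 44.2-fold lower.

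Markers of the other cell types moved in the same comparison, and their part in the values above was not tested. The markers named are those with the smallest p in each list. They were Col3a1, Col1a2 and Pdgfra for the 12 fibroblast markers, all of which fell, and Vwf, Tie1 and Cdh5 for the endothelial list. The natriuretic clearance receptor gene Npr3, an endocardial marker, the arterial connexin gene Gja4 and the podoplanin gene Pdpn stood for the endothelial subtypes, at -2.06, -2.68 and -1.33. Lrrn4, Upk1b and Upk3b, for the epicardial list, were at -3.00, -2.61 and -2.98. Of the smooth muscle and pericyte list, Des, also a muscle gene, rose by 0.87, and Pdgfrb and Notch3 fell by 0.85 and 1.29. All 11 macrophage markers tested fell, among them Lyz2, Adgre1 and Cd68, with a median of -5.02, unaltered when C1qa, which had 0 counts with Firre, is set to its bound. Of 4 Schwann cell and neuron markers tested, Tubb3, Sox10 and S100b fell. All 8 neural markers listed summed to 10.2 to 11.6 CPM with Firre and 18.2 to 19.4 CPM in the negative control.

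For the 6 factors that passed, the genes with the most similar profile over the 9 libraries were found by the same root mean square difference. For Tbx5 they were Dhrs11 and Lmo7, at 0.037 and 0.039 in log2 CPM, and for Nr2f1 Inka2 and Ccdc141, at 0.12 and 0.13. For Nr2f2 they were Skil, a repressor of TGF-beta signalling, and Fam168b, at 0.029 and 0.031. Irx4 was nearest to Cdip1 and Inpp5a (0.043 and 0.048), Irx5 to Rfxap and Tmem160 (0.043 and 0.045) and Hey1 to Itgb4 and Syt5 (0.13 and 0.16). The log2 values of these 12 genes for Firre against the negative control ran from -1.13 for Itgb4 to 1.24 for Dhrs11.

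The negative control and the blank control, the groups with AAV9-VC and with no vector named, were compared in the same fit. None of the 9 passed the edgeR test, and the unadjusted p was lowest for Nr2f2, at 0.0955; over all genes 9 were called (0.0576%), 1 higher (0.00640%) and 8 lower (0.0512%), and 1331 had an unadjusted p under 0.05 (8.51%). DESeq2 called 34 genes. It gave no adjusted p for Nr2f1, Nr2f2, Hey1, Hey2, Irx4, Irx5 and Shox2, so it could not call these factors. Tbx5 and Irx3 did not pass there (DESeq2 adjusted p = 0.99 and 0.909). The intervals allow for differences that were not detected: -0.11 to 0.10 for Tbx5, -0.02 to 0.24 for Nr2f2, -0.18 to 0.61 for Nr2f1 and -0.75 to 0.55 for Hey1, on the log2 scale. For no factor did the 2 control groups separate without overlap, which 13.1% of all genes did.

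Against the blank control, which shares the Firre libraries with the comparison above, the same 4 factors were called higher and the same 2 lower, where 56.3% of all genes were called, 27.3% higher and 28.9% lower. Groups did not overlap for 60.5% of all genes. The values were 1.21 for Tbx5, 1.19 for Nr2f1, 0.41 for Irx4, 0.21 for Irx5, -0.33 for Nr2f2 and -1.11 for Hey1 (edgeR adjusted p from 1.02e-18 for Tbx5 to 0.0495 for Irx5). Irx5 lost its call here under 11 of 16 alternatives, 7 of which leave out a library: blank control replicate 1 (0.11, adjusted p = 0.303) or 2 (0.23), any 1 negative control library (each 0.21), or Firre replicate 2 (0.13) or 3 (0.23). Hey2, Irx3 and Shox2 stood at 0.16, -0.0043 and -0.16 and did not pass.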

How the data were processed

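Libraries were made from TRIzol-extracted, ribosomal RNA-depleted total RNA with a directional kit and sequenced as paired-end reads, per the labels' protocols; the labels also give the molecule as polyA RNA. The submitters' processing notes name FastQC, Trimmomatic, STAR and featureCounts and the mm10 build. The authors deposited raw counts per Ensembl gene. 5 closing lines, named as HTSeq names them, hold reads of no gene (16.3% to 17.4% per library) and were left out. Symbols, coordinates and exon lengths came from GENCODE M21 (mm10), which matched 55227 of 55487 identifiers.

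Counts of all 9 libraries entered 1 fit in edgeR 4.0.16 (R 4.3.3) with TMM scaling, filterByExpr (minimum count 10) and no covariate, and p-values were adjusted over 15633 genes. CPM per kilobase divides by the union of exons. Replicate pairs of a group differed by more than sampling noise (chi-square per degree of freedom at least 3.27). The scripts were tested on simulated data. The factors and the 15 gene lists were chosen with earlier results of these data known. Named were all 9 factors, their neighbours within 5 kb, the 3 or 6 list genes with the smallest p for Firre against negative control, and the 2 most similar profiles. A gene that this rule names is not reported here. Alternatives were 3 other scalings, no filter, DESeq2 1.42.0, 6 libraries only, the replicate block and each library left out.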

Additional observations from a re-analysis of the deposited data

How the results depend on the processing

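Over 16 alternatives for each comparison, Tbx5, Nr2f1, Nr2f2 and Irx4 kept their direction and their call for Firre against either control. These alternatives do not include scaling to the cardiomyocyte markers, under which Irx4 stood at -0.30. Only Irx5 and Hey1 lost a call. Against the negative control the number of factors lower was 1 to 2 when a library was left out. Deviations of libraries with the same replicate number correlated at -0.0399 to 0.0283, none of 9 pairs above 0.1. These values show no sign of pairing. They cannot exclude a shared animal or day, since the labels do not say what the numbers mean. With the replicate block the factor calls stayed at 4 higher and 2 lower against the negative control, and 8592 genes were called against 8747.

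Between the negative and blank controls, the number of all genes called moved from 9 to 98 without the low-count filter, to 34 with DESeq2, and to between 0 and 55 when a library was left out. Differences near 0 that passed no test changed sign. Tbx5 in that comparison (-0.0012) was 0.0040 with median-of-ratios factors, 0.0040 with library totals, 0.00076 without the filter, 0.0046 with DESeq2 and 0.0031 with 6 libraries, and -0.022 to 0.019 with a library left out. Irx3 against the blank control (-0.0043) was 0.0029 with median-of-ratios factors, 0.00072 with DESeq2 and 0.0011 with 6 libraries, and -0.092 to 0.080 with a library left out. Other sign changes came only from leaving out a library: -0.081 to 0.0040 for Irx3 against the negative control and, between the controls, -0.061 to 0.11 for Irx3, -0.11 to 0.078 for Irx5, -0.27 to 0.045 for Hey2, -0.31 to 0.047 for Shox2 and -0.33 to 0.21 for Hey1. Low counts limit Hey1, Hey2, Shox2 and Nr2f1, whose intervals are the widest.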
